A study of Homo sapiens with 15 samples.

Results

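Hyaluronan is the long sugar chain that gives synovial fluid its viscosity, and lubricin is the glycoprotein that coats joint surfaces. The genes described here were 10 listed genes for making, cutting and binding hyaluronan and for lubricin: UGDH, HAS1, HAS2, HAS3, HYAL1, HYAL2, CEMIP (KIAA1199), CEMIP2 (TMEM2), CD44 and PRG4. Each was taken through the platform annotation, with the brightest transcript cluster where a gene had several. Of the 10 genes, 8 had a transcript cluster under 1 symbol, among 18417 such genes on the array. HAS1 and HYAL1 were not analysed here. PRG4 lay below the filter on dim genes, so that 7 of the 10 entered the test among 16872 genes. The values came from MH7A, an established human synovial cell line with fibroblast properties, measured on 15 arrays (Affymetrix Human Gene 1.0 ST) in 5 groups of 3. In the tested conditions, cells were given 5 mM GlcN (glucosamine) from 2.5 h before IL-1β, the same with alloxan, or alloxan without GlcN. Alloxan, which the study used to inhibit O-GlcNAc transferase, was applied for 30 min at 5 mM and kept in the medium at 2 mM from then on. All 3 of these conditions also received IL-1β at 15 pg/ml for 13 h, as did the IL-1β group they were set against, while resting cells received none of the agents. Each of 3 experiments supplied 1 array of every condition, all from the same line, so that the replicates measured repeat cultures of 1 line and not donors.

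Hyaluronan is built at the plasma membrane by the hyaluronan synthases HAS1, HAS2 and HAS3, which join UDP-glucuronic acid and UDP-N-acetylglucosamine in alternation and push the growing chain out of the cell. UGDH makes the UDP-glucuronic acid, and the hexosamine pathway, into which GlcN enters, makes the UDP-N-acetylglucosamine. Long chains are cut by the hyaluronidases HYAL1 and HYAL2 and by the cell-surface or secreted depolymerising proteins CEMIP2 and CEMIP, and are bound by CD44, the main hyaluronan receptor of fibroblasts. Synovial fibroblasts are the chief source of both hyaluronan and lubricin in joint fluid.

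The signals are log2 values, and they were comparable only within an experiment, since array medians lay at 6.18 to 6.21 in experiment 1, at 7.14 to 7.19 in experiment 2 and at 7.49 to 7.54 in experiment 3. Differences are therefore given within experiments, and all fits held the experiment as a block. Many genes had exactly equal values on 2 or more of the 5 arrays of an experiment (61.1%, 49.7% and 51.3% of genes in experiments 1, 2 and 3), the listed genes included. All 10 synovial fibroblast markers were measured, and VIM (98.3rd to 99.3rd percentile of an array), FN1 (94.7th to 98.2nd) and COL1A1 (86.3rd to 94.8th) stood high on every array. Others were lower, among them CDH11 (35.2nd to 52.1st) and PDPN (24.2nd to 32.5th). PTPRC and LYZ, leukocyte markers, stayed at or below the 12.4th and the 16.7th percentile, while CD68, which fibroblasts also express, lay between the 82.0th and the 86.1st. The other leukocyte markers ran from CD163 (18.5th to 23.8th) to CD14 (36.5th to 47.9th), a range that overlaps those of PDPN and CDH11. Endothelial markers ran from PECAM1 (19.3rd to 26.9th) to CDH5 (35.3rd to 43.3rd). Epithelial markers ran from EPCAM (15.5th to 21.9th) to KRT14 (58.2nd to 70.0th). None of the 5 leukocyte markers tested was called in any comparison. From 0% to 17.5% of all genes were called in a comparison, so that 0 of 5 is near the share over all genes.

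Over the 5 conditions together, 3 of the 7 tested genes differed in limma's F test with the experiment as a block, against a background of 25% of all genes tested. These were UGDH (adjusted p = 0.00193), HYAL2 (0.0297) and HAS2 (0.0323). CD44 (0.149), HAS3 (0.173), CEMIP2 (0.422) and CEMIP (0.907) did not pass. With no replicate block that test called 0 of the 7 genes and 6 of all 16872. By mean over experiments, UGDH was highest with GlcN and alloxan and second highest with GlcN, HAS2 was lowest with GlcN, and HYAL2 was lowest with GlcN and alloxan. In bulk RNA, fewer cells of a kind and less RNA per cell cannot be told apart.

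**Figure D1:**
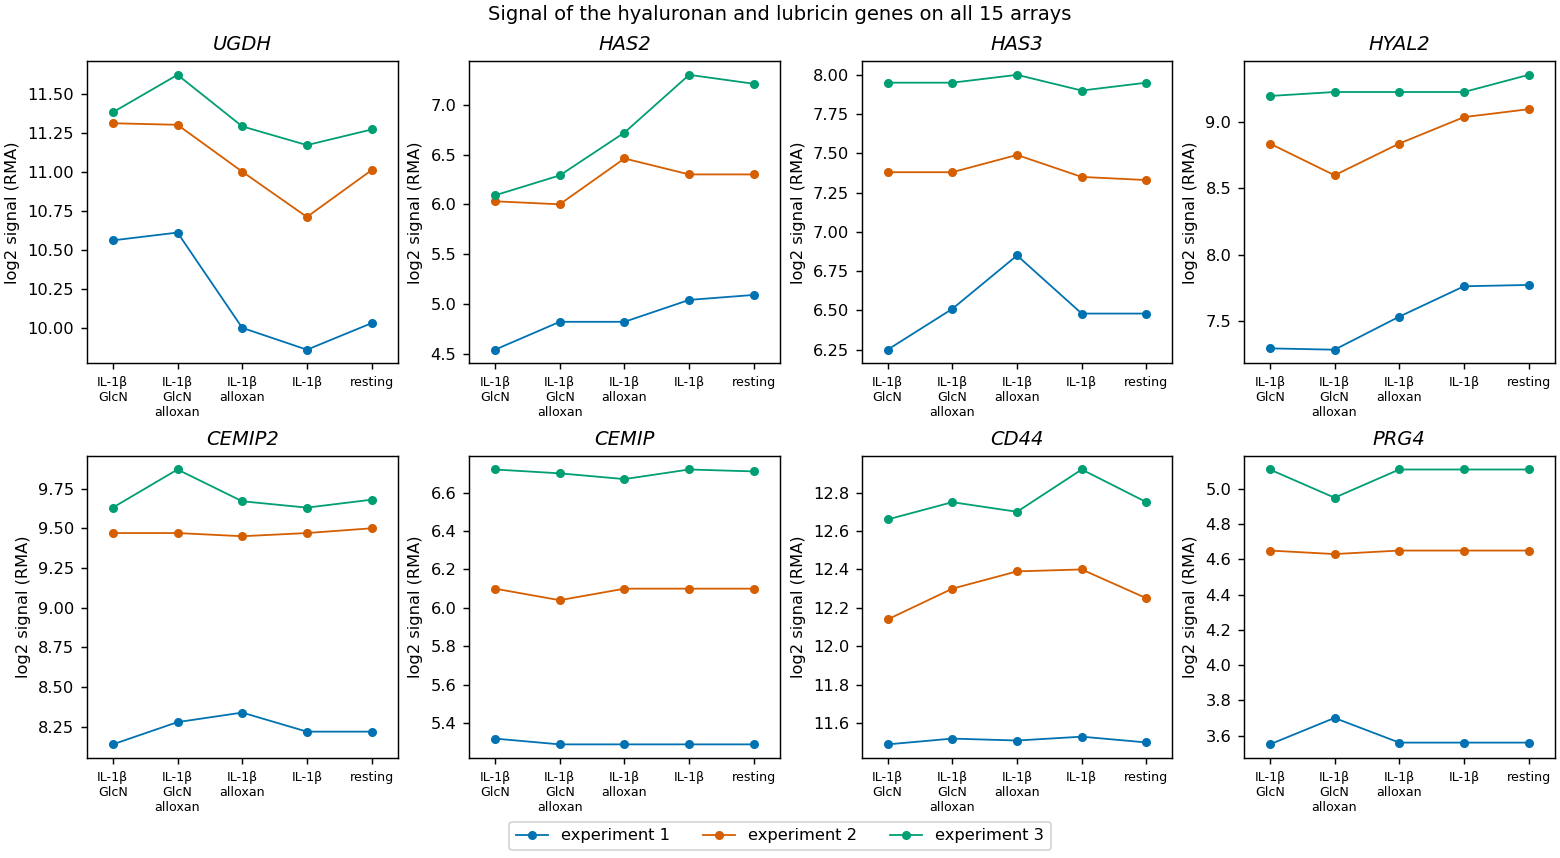
Log2 signal (RMA) of the 8 measured genes on the 15 arrays, with the 5 conditions along the horizontal axis of each panel and 1 line for each experiment. UGDH was higher on the arrays with GlcN in every experiment, HAS2 dropped most in experiment 3, and the CEMIP lines are nearly flat. The vertical scale differs between panels.

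The question behind the GlcN arrays was how GlcN changes expression in stimulated cells. Against IL-1β alone, GlcN changed 3 of the 7 genes at an adjusted p under 0.05, where 11.9% of all genes were called. UGDH rose (5.29% of all genes were called higher), and HAS2 and CD44 fell (6.62% were called lower). With GlcN and alloxan, 2 of the 7 were called against a background of 17.5%: UGDH rose (9.06% were called higher) and HYAL2 fell (8.47% were called lower). Alloxan without GlcN called 0 of the 7, where 13.3% of all genes were called. GlcN added in the presence of alloxan called UGDH alone, as higher (1.86% of all genes were called higher and 3.53% in either direction), and alloxan added to GlcN called 0 of the 7 (6.79%). IL-1β against resting cells called 0 of 16872 genes, or 0%, by limma, the 7 included. In that comparison 977 genes (5.79%) had an unadjusted p under 0.05, among them 2 of the 7, UGDH and CD44. Several of these comparisons share the IL-1β or the GlcN arrays and are not independent of each other.

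**Figure D2:**
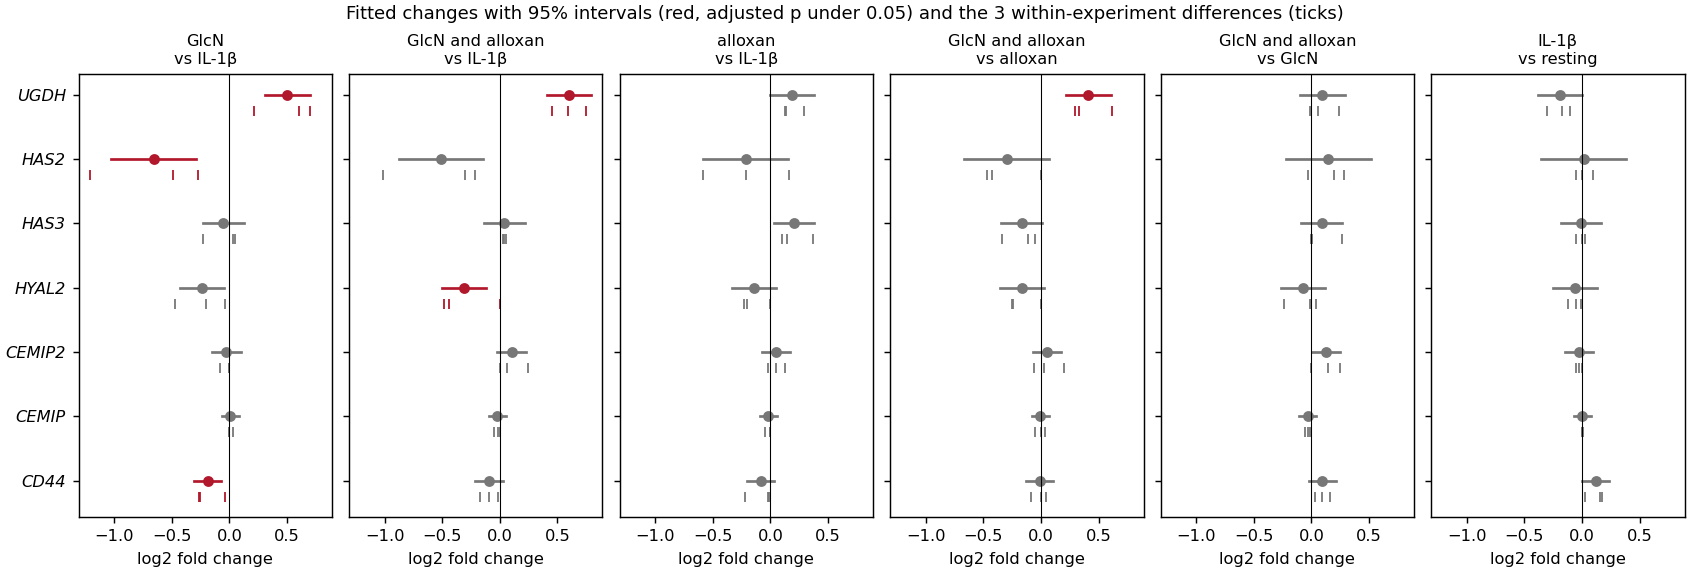
Fitted log2 fold change of the 7 tested genes in 6 comparisons, as points with 95% intervals, with ticks below for the differences in the 3 experiments. Red marks an adjusted p under 0.05 over all genes, which was reached by UGDH, HAS2 and CD44 with GlcN, by UGDH and HYAL2 with GlcN and alloxan, and by UGDH for GlcN and alloxan against alloxan.

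All of these calls rest on holding the experiment as a block. The block also takes up the difference in signal level between experiments. No fit without the block was run on values normalized across experiments, so the pairing and the level cannot be told apart here. With no replicate block, a fit in which the difference between experiments enters the spread, 0 of the 7 genes were called in any comparison (limma adjusted p = 1 for each of the 6 calls). That fit gave every gene the same SE of 0.596 and called few genes at all: 4 of 16872 (0.0237%) for GlcN, 1 (0.00593%) for GlcN with alloxan and 0 for GlcN with alloxan against alloxan. Fitted with the block on only the 6 arrays compared, which leaves fewer arrays to estimate the spread, the same 6 calls had adjusted p-values from 0.0747 to 0.326, and the genes called in these 3 comparisons numbered 1 (0.00593%), 276 (1.64%) and 0. The calls against resting cells and those of the other genes named below, chosen for this check after seeing the data, were lost in both fits as well.

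For 3 of the 4 genes with a call, the 250 bases before the gene start are shown so that the sequence can be read beside the values. They come from RefSeq on GRCh38.p14, run 5′ to 3′ on the gene's strand, and carry GC boxes (GGGCGG on either strand, the core that Sp1 family factors bind) in capitals. The windows are chr4:39527440-39527689 on the minus strand for UGDH, chr11:35138921-35139170 on the plus strand for CD44 and chr3:50322746-50322995 on the minus strand for HYAL2.
UGDH: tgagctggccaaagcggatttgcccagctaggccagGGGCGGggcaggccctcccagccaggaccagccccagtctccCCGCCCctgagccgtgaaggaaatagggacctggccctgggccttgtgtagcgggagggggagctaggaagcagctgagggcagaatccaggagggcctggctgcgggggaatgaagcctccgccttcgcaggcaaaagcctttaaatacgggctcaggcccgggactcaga
CD44: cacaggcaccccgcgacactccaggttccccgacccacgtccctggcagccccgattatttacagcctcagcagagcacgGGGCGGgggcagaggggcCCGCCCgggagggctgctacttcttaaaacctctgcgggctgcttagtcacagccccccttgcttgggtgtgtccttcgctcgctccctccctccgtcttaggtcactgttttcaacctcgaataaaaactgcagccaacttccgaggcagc
HYAL2: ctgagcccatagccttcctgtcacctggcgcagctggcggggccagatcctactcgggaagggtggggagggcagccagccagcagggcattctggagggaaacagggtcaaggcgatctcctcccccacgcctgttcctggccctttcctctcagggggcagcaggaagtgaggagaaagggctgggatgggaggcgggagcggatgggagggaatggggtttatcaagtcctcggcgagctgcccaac
UGDH held 2 GC boxes, at 214 to 209 and 172 to 167 bases before its start, and CD44 held 2, at 170 to 165 and 152 to 147 bases before its start. HYAL2 held 0. Of 35116 promoter windows of this length, 42.6% held a GC box. The letters searched for AP-1 (TGANTCA, in 6.57% of windows), for the NF-κB consensus site (1.73%) and for the amino acid response element (TGATGNAA, 3.14%) were in none of these 3 windows on either strand. The E-box CACGTG (6.34% of windows) lay in the HAS3 window, at 66 to 61 bases before the start, and TATAAA (10.7%) in the CEMIP window, at 30 to 25 bases. No 2 matches overlapped.

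UGDH, UDP-glucose 6-dehydrogenase, oxidises UDP-glucose to the UDP-glucuronic acid that all hyaluronan synthases use. Its signal was between the 90.0th and the 94.8th percentile of an array. In experiments 1, 2 and 3 it was 10.56, 11.31 and 11.38 with GlcN, and 10.61, 11.30 and 11.62 with GlcN and alloxan. With alloxan alone it was 10.00, 11.00 and 11.29, with IL-1β alone 9.86, 10.71 and 11.17, and in resting cells 10.03, 11.01 and 11.27. In each experiment both arrays with GlcN were above the other 3. GlcN raised UGDH over IL-1β alone by 0.50 on the log2 scale (SE 0.0877, 95% interval 0.31 to 0.70), with 0.70, 0.60 and 0.21 in the 3 experiments (SD 0.26, n = 3, limma adjusted p = 0.00372). This is a fold of 1.42. The call held without any 1 of the 15 arrays and without experiment 3, and was lost without experiment 1 (0.41, adjusted p = 0.0542) and without experiment 2 (0.45, adjusted p = 0.131).

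With GlcN and alloxan, UGDH rose by 0.60 over IL-1β alone (95% interval 0.40 to 0.79), by 0.75, 0.59 and 0.45 in the 3 experiments (SD 0.15, n = 3, limma adjusted p = 0.000734). This was the only one of the 6 calls to hold without each array and without each experiment in turn. Alloxan without GlcN gave 0.19 (95% interval -0.01 to 0.38, adjusted p = 0.211), higher in 3 of 3 experiments. Set against alloxan alone, GlcN with alloxan raised UGDH by 0.41 (95% interval 0.22 to 0.61), by 0.61, 0.30 and 0.33 in the 3 experiments (SD 0.17, n = 3, limma adjusted p = 0.0267). The last call was lost without any 1 of the 6 arrays compared (0.35 to 0.46, adjusted p from 0.0604 to 0.135) and without any 1 of the 3 experiments (0.31 to 0.47, adjusted p from 0.111 to 0.216). IL-1β alone was below resting cells in 3 of 3 experiments, by -0.17, -0.31 and -0.10 (mean -0.19, SD 0.10, limma adjusted p = 0.852).

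Of the synthases, HAS2, which makes long hyaluronan chains and is the main synthase of synovial fibroblasts, gave a signal between the 24.4th and the 46.5th percentile. That range overlaps those of the endothelial markers KDR (21.9th to 28.1st) and VWF (30.8th to 39.4th), and no detection call was used. The HAS2 signal was 4.54, 6.03 and 6.09 in experiments 1, 2 and 3 with GlcN, and 4.82, 6.00 and 6.29 with GlcN and alloxan. With alloxan alone it was 4.82, 6.46 and 6.72, with IL-1β alone 5.04, 6.30 and 7.30, and in resting cells 5.09, 6.30 and 7.21. The IL-1β and resting arrays were close to each other in all 3 experiments, and the GlcN array was the lowest in experiments 1 and 3. GlcN lowered HAS2 against IL-1β alone by a mean log2 difference of -0.66 (SE 0.168, 95% interval -1.03 to -0.29), with -0.49, -0.27 and -1.21 in the 3 experiments (SD 0.49, n = 3, limma adjusted p = 0.0260). Expressed as a ratio this is 0.634, with the widest spread between experiments of the 7 genes. The HAS2 call was lost without the experiment 1 GlcN array (-0.70, adjusted p = 0.0513), the experiment 3 GlcN array (-0.50, 0.112) or the experiment 3 IL-1β array (-0.47, 0.0951). Leaving out experiment 1, 2 or 3 as a whole gave -0.74, -0.85 or -0.38, with adjusted p-values of 0.140, 0.0886 and 0.139.

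With GlcN and alloxan HAS2 differed from IL-1β alone by -0.51 (95% interval -0.88 to -0.14), with -0.21, -0.30 and -1.01 in the 3 experiments, and did not pass the test (limma adjusted p = 0.0587). It passed without the experiment 1 array of GlcN with alloxan (-0.63, adjusted p = 0.0499) or the experiment 3 GlcN array (-0.51, adjusted p = 0.0462). Alloxan without GlcN gave -0.21 (95% interval -0.58 to 0.15), with experiment 2 higher and the other two lower. For GlcN in the presence of alloxan the value was -0.30 (95% interval -0.67 to 0.07, adjusted p = 0.421), and in experiment 1 both arrays read 4.82. IL-1β against resting cells gave 0.01 (95% interval -0.36 to 0.38), and differences inside that interval were not detectable here.

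HAS3, the synthase of shorter chains, was near the middle of the arrays (50.9th to 58.8th percentile) and called in none of the comparisons. Its signal in experiments 1, 2 and 3 was 6.25, 7.38 and 7.95 with GlcN, 6.51, 7.38 and 7.95 with GlcN and alloxan, and 6.85, 7.49 and 8.0 with alloxan alone. With IL-1β alone it was 6.48, 7.35 and 7.90, and in resting cells 6.48, 7.33 and 7.95. The alloxan array was the highest of its experiment in 3 of 3 experiments, above IL-1β alone by 0.37, 0.14 and 0.10 (mean 0.20, 95% interval 0.03 to 0.38, limma adjusted p = 0.129). GlcN gave -0.05 against IL-1β alone (95% interval -0.23 to 0.13), lower in experiment 1 and slightly higher in the other two. The difference for alloxan passed the test only when the experiment 1 GlcN array was left out of the fit (adjusted p = 0.0400, with the same value of 0.20).

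Of the tested genes that cut hyaluronan, HYAL2, a hyaluronidase anchored at the cell surface, was the only one with a call. Against IL-1β alone it was called with GlcN and alloxan together, and with neither agent by itself. In experiments 1, 2 and 3 its signal was 7.29, 8.84 and 9.20 with GlcN, 7.28, 8.60 and 9.23 with GlcN and alloxan, and 7.53, 8.84 and 9.23 with alloxan alone. It was 7.76, 9.04 and 9.23 with IL-1β alone and 7.77, 9.10 and 9.36 in resting cells. Resting cells were the highest in 3 of 3 experiments, and in experiment 3 the arrays of IL-1β, alloxan, and GlcN with alloxan held the same value. GlcN with alloxan lowered HYAL2 against IL-1β alone by a mean log2 difference of -0.31 (95% interval -0.50 to -0.12), with -0.48, -0.44 and 0 in the 3 experiments (SD 0.27, n = 3, limma adjusted p = 0.0312). The call was lost without the experiment 1 array of IL-1β (-0.24, adjusted p = 0.139) or of GlcN with alloxan (-0.27, 0.115), and without the experiment 2 array of IL-1β (-0.29, 0.110) or of GlcN with alloxan (-0.25, 0.151). It was also lost without experiment 1 (-0.22, adjusted p = 0.255) or experiment 2 (-0.24, adjusted p = 0.351). GlcN without alloxan gave -0.24 (95% interval -0.43 to -0.05), with -0.47, -0.20 and -0.04 in the 3 experiments (limma adjusted p = 0.109), and passed without the experiment 3 IL-1β array (-0.33, adjusted p = 0.0383). Alloxan without GlcN gave -0.14 (limma adjusted p = 0.342). GlcN with alloxan gave -0.16 against alloxan alone (adjusted p = 0.390), and alloxan added to GlcN gave -0.07 (adjusted p = 0.679).

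CEMIP and CEMIP2, the depolymerising pair, were called in none of the comparisons. CEMIP lay between the 32.1st and the 37.0th percentile and spanned 0.03, 0.06 and 0.05 log2 units over the 5 conditions of experiments 1, 2 and 3. On 4 of 5 arrays of experiments 1 and 2 its value was the same, and its fitted differences over 6 comparisons ran from -0.03 to 0.01 (smallest adjusted p 0.606). CEMIP2 was brighter on its array (74.3rd to 79.3rd percentile) and spanned 0.20, 0.05 and 0.24 log2 units. Its fitted differences ran from -0.03 to 0.13, the last for alloxan added to GlcN (95% interval 0.005 to 0.25, limma adjusted p = 0.207).

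CD44, the cell-surface receptor that anchors the hyaluronan coat, was among the brightest genes of every array (97.1st to 98.7th percentile). Its signal was 11.49, 12.14 and 12.66 in experiments 1, 2 and 3 with GlcN, 11.52, 12.30 and 12.75 with GlcN and alloxan, and 11.51, 12.39 and 12.70 with alloxan alone. With IL-1β alone it was 11.53, 12.40 and 12.92, and in resting cells 11.50, 12.25 and 12.75. The GlcN array was the lowest and the IL-1β array the highest in 3 of 3 experiments. GlcN lowered CD44 against IL-1β alone by a mean log2 difference of -0.19 (SE 0.0537, 95% interval -0.31 to -0.07), with -0.04, -0.26 and -0.27 in the 3 experiments (SD 0.13, n = 3, limma adjusted p = 0.0435). The ratio was 0.878. This was the least stable call: it was kept without the experiment 1 array of GlcN or of IL-1β and without the experiment 2 or 3 array of alloxan, and lost without any 1 of the other 11 arrays (-0.19 to -0.14, adjusted p from 0.0543 to 0.183). It was lost too without any whole experiment (-0.26 to -0.15, adjusted p from 0.0700 to 0.282) and after quantile normalization of all arrays (-0.18, adjusted p = 0.0748). IL-1β against resting cells gave 0.03, 0.15 and 0.18 (mean 0.12, limma adjusted p = 0.852).

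PRG4, which encodes lubricin, lay between the 13.3rd and the 15.6th percentile on all 15 arrays, below the 20th percentile that a gene had to reach on at least 3 arrays. Its signal in experiments 1, 2 and 3 was 3.55, 4.65 and 5.11 with GlcN, and 3.70, 4.63 and 4.95 with GlcN and alloxan. It was 3.56, 4.65 and 5.11 with alloxan alone, with IL-1β alone and in resting cells alike. These levels are at the dim end of the arrays, and no detection call was used here that would tell them from background. Fitted without the filter, its log2 differences over the 6 comparisons were between -0.01 and 0 (limma adjusted p from 0.952 to 1).

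The order of conditions can be read from the signals centred on each experiment's mean, given as means ± SD over 3 experiments. UGDH ran from GlcN with alloxan (0.30 ± 0.09) over GlcN (0.21 ± 0.16), resting (-0.10 ± 0.07) and alloxan (-0.11 ± 0.09) to IL-1β alone (-0.30 ± 0.10). Of the steps between neighbours, only that between GlcN and resting cells passed the test (0.31, limma adjusted p = 0.0410). HAS2 ran from IL-1β alone (0.28 ± 0.26) over resting (0.27 ± 0.21), alloxan (0.07 ± 0.15) and GlcN with alloxan (-0.23 ± 0.20) to GlcN (-0.38 ± 0.23), and no neighbours differed by the test. HYAL2 ran from resting (0.19 ± 0.07) over IL-1β alone (0.13 ± 0.13), alloxan (-0.02 ± 0.02) and GlcN (-0.11 ± 0.11) to GlcN with alloxan (-0.18 ± 0.14), again with no step between neighbours past the threshold. Set against resting cells, 3 of the 7 genes were called with GlcN, where 12.5% of all genes were. UGDH rose by 0.31 (adjusted p = 0.0410), HAS2 fell by 0.64 on the log2 scale (adjusted p = 0.0285) and HYAL2 fell by 0.30 (adjusted p = 0.0453, all by limma). With GlcN and alloxan, 2 were called against resting cells (16.5% of all genes), UGDH at 0.40 (adjusted p = 0.00841) and HYAL2 at -0.37 (adjusted p = 0.0131), and with alloxan alone 0 (13.9%). Of these 5 calls, only that of UGDH with GlcN and alloxan held without each array in turn, and none held without each experiment.

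Whether the GlcN difference depended on alloxan was read from the interaction, the GlcN difference with alloxan minus that without it. None of the 7 genes passed it by limma, and 12 of 16872 genes did (0.0711%), while 1 of the 7, CD44, had an unadjusted p under 0.05, as did 11% of all genes. For CD44 the interaction was 0.18 (95% interval 0.01 to 0.34), with 0.05, 0.17 and 0.31 in the 3 experiments (limma adjusted p = 0.431), and the GlcN difference in the presence of alloxan was -0.01 (95% interval -0.13 to 0.11). For HAS2 it was 0.36 (95% interval -0.16 to 0.88), with 0.49, -0.19 and 0.78, and for UGDH -0.09, with an adjusted p of 0.565 for HAS2 and of 0.782 for UGDH. The HAS2 interval covers both no difference and a loss of the whole GlcN difference, so that neither could be told at this precision.

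**Figure D3:**
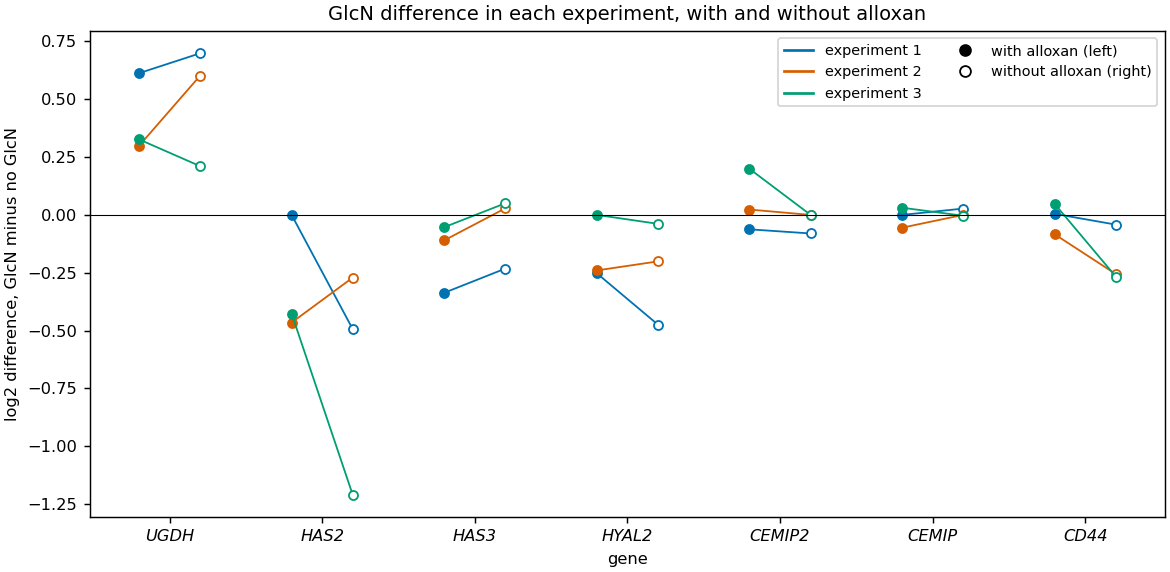
Log2 difference, GlcN minus no GlcN, in each experiment for the 7 tested genes, with alloxan (filled, left) and without alloxan (open, right), joined within an experiment. UGDH is above 0 at all 6 points, while for HAS2 the lines of experiments 1 and 3 and that of experiment 2 slope in opposite directions.

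The lists of other genes of the pathway were read by how many members passed the test for GlcN against IL-1β alone. Of all genes, 5.29% were called higher and 6.62% lower there. With alloxan alone these shares were 6.13% and 7.21%, and with GlcN and alloxan 9.06% and 8.47%. They were 3.27% and 3.52% when alloxan was added to GlcN. For GlcN with alloxan against alloxan alone they were 1.86% and 1.67%. The median log2 difference was between -0.09 and 0.03 in each list, against 0.01 over all genes. In the supply of UDP-sugars, 1 of 8 tested genes was called: GFPT1, the first enzyme of the hexosamine pathway, rose by 0.44 (SD 0.23, n = 3, limma adjusted p = 0.0034). It also rose with GlcN and alloxan (0.28, adjusted p = 0.0265) and for GlcN with alloxan against alloxan alone (0.36, adjusted p = 0.0263), the 3 comparisons in which UGDH rose. SLC35D1, a transporter of UDP-sugars into the endoplasmic reticulum, rose with GlcN and alloxan (0.33, adjusted p = 0.0051) and when alloxan was added to GlcN (0.27, adjusted p = 0.0349), and PGM1, phosphoglucomutase, with alloxan alone (0.48, adjusted p = 0.0158). Of the 8 genes, 2 were called higher with GlcN and alloxan, and 1 in each other comparison named for this list. GUSB and HEXA, lysosomal enzymes that trim hyaluronan fragments, were called in none of the comparisons.

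Of the 8 other receptors tested, 2 fell with GlcN: ICAM1, an adhesion molecule that also binds hyaluronan (-0.56, SD 0.22, limma adjusted p = 0.0228), and ITGA5, the fibronectin receptor chain (-0.48, SD 0.30, adjusted p = 0.0111). ITGA5 is on this list but is not itself a hyaluronan receptor. HMMR, LAYN, STAB1, STAB2, TLR2 and TLR4 were not called there. ITGA5 also fell with GlcN and alloxan (-0.46, adjusted p = 0.0091) and for GlcN with alloxan against alloxan alone (-0.45, adjusted p = 0.0360). Of the 8 receptors, 1 was called in each of these. ICAM1 and ITGA5 were bright, and with the filter at the 50th percentile 18.9% of genes were called with GlcN. Among 18 hyaluronan-binding matrix proteins, PTX3, a pentraxin that helps to cross-link hyaluronan in the cumulus matrix, fell with GlcN (-0.62, SD 0.38, adjusted p = 0.0421) and with GlcN and alloxan (-0.84, SD 0.42, adjusted p = 0.0065). HAPLN1, the link protein that ties proteoglycans to hyaluronan, fell in the 3 comparisons that added alloxan. Its differences were -0.60 for alloxan alone (adjusted p = 0.0016), -0.37 for GlcN with alloxan against IL-1β (adjusted p = 0.0165) and -0.37 for alloxan added to GlcN (adjusted p = 0.0339, all by limma). With GlcN it gave 0.00 (SD 0.15). With alloxan alone ITIH4, a heavy chain of the inter-alpha-trypsin inhibitor family, also fell (-0.34, adjusted p = 0.0038), and HAPLN3, another link protein, rose (0.29, adjusted p = 0.0491). Of the 18 matrix proteins, 1 was called lower with GlcN and 2 with GlcN and alloxan. With alloxan alone 2 were called lower and 1 higher, and 1 was lower when alloxan was added to GlcN. These counts are near the shares of all genes given above. VCAN, the versican core protein, gave -0.24 with GlcN and did not pass (adjusted p = 0.277).

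Of 8 genes for shedding and anchoring CD44, 3 were called with GlcN, where 11.9% of all genes were. These 3 were bright, and with the filter at the 50th percentile 18.9% of genes were called. The list was chosen with earlier results of these data known. ADAM17, a sheddase, rose by 0.28 (SD 0.07, limma adjusted p = 0.0042), while ADAM10, the sheddase of the CD44 ectodomain, fell by 0.19 (SD 0.07, adjusted p = 0.0438) and MSN, moesin, which links CD44 to actin, fell by 0.25 (SD 0.16, adjusted p = 0.0431). ADAM10 also fell with GlcN and alloxan (-0.41, adjusted p = 0.000346) with alloxan alone (-0.32, adjusted p = 0.0033) and when alloxan was added to GlcN (-0.22, adjusted p = 0.0328). ADAM17 rose with GlcN and alloxan too (0.18, adjusted p = 0.0306). NF2, merlin, a relative of the proteins that join CD44 to actin, fell with GlcN and alloxan (-0.26, adjusted p = 0.0330). Of these 8 genes, 1 was called higher and 2 lower with GlcN and alloxan. With alloxan alone 1 was called lower, as was 1 when alloxan was added to GlcN. In the lubricin list, CREB5, a transcription factor that drives PRG4 expression in bovine articular chondrocytes, rose with GlcN by 0.52 (SD 0.12, limma adjusted p = 0.000105) and fell when alloxan was added to GlcN (-0.42, SD 0.02, adjusted p = 0.0012), while PRG4 itself stayed at the dim end throughout. The change in the GlcN difference of CREB5 with alloxan did not pass the test (adjusted p = 0.0620). CREB5 lay between the 36.3rd and the 47.8th percentile, which overlaps the endothelial marker CDH5 (35.3rd to 43.3rd), and no detection call was used. TGFBR2, a receptor chain for TGF-β, fell by the same 0.21 with alloxan alone (adjusted p = 0.0325) and with GlcN and alloxan (adjusted p = 0.0297, both by limma). Of the 7 genes tested in the lubricin list, 1 was called higher with GlcN and 1 lower with GlcN and alloxan. Lower were 2 with alloxan alone and 2 when alloxan was added to GlcN, FN1 among them in both.

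**Figure D4:**
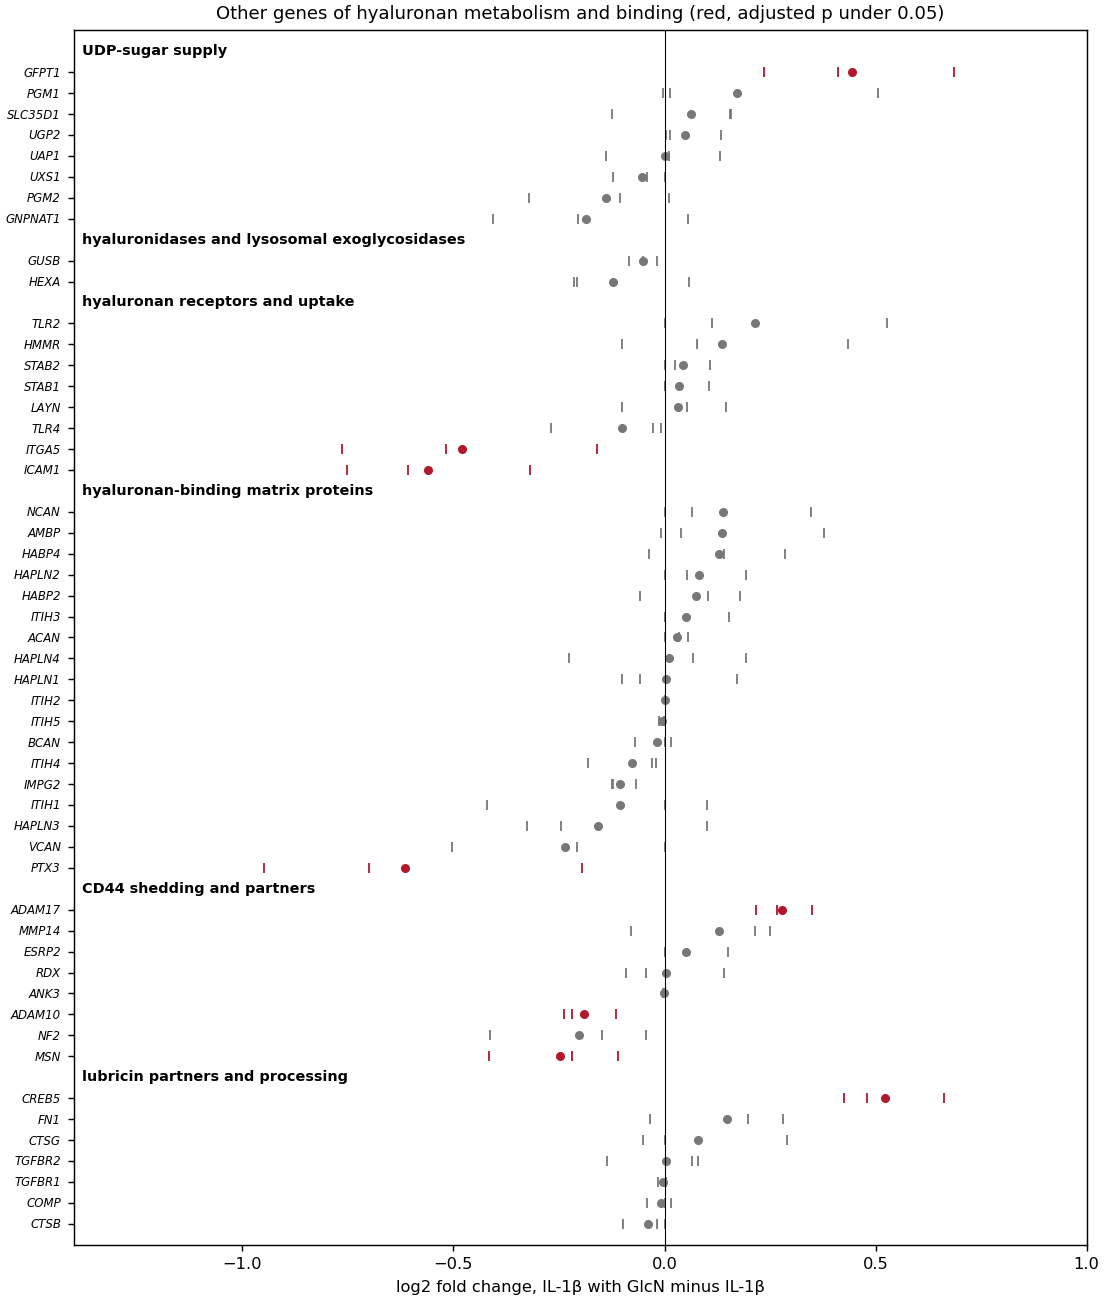
Fitted log2 fold change, IL-1β with GlcN minus IL-1β, of the genes on the other lists for hyaluronan and lubricin. Points are grouped by list, with ticks for the 3 experiments. Red marks an adjusted p under 0.05, reached by 8 genes: GFPT1, ITGA5, ICAM1, PTX3, ADAM17, ADAM10, MSN and CREB5.

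Some synovial fibroblast markers moved as well, also with alloxan alone, where 0 of the 7 listed genes were called. With GlcN, 4 of 10 fell against IL-1β alone (COL1A1 -0.47, COL1A2 -0.53, COL3A1 -0.68 and THY1 -0.44, limma adjusted p from 0.00173 to 0.0195), where 6.62% of all genes were called lower. With alloxan 5 of 10 fell (7.21% of all genes): COL1A1 -0.68, COL1A2 -0.82, COL3A1 -0.57, FN1 -0.34 and PDGFRB -0.80. With both 6 of 10 fell (8.47%). The fibroblast markers that fell lay at the 58.1st percentile or above on every array, and brighter genes were called more often. With the filter at the 50th percentile 18.9% of genes were called with GlcN, 21.2% with alloxan and 26.5% with both, in either direction. THY1 also fell for GlcN with alloxan against alloxan alone (-0.35, adjusted p = 0.0179). COL1A1 fell when alloxan was added to GlcN (-0.44, adjusted p = 0.0327, both by limma). FN1, fibronectin, fell with alloxan (-0.34, adjusted p = 0.0032) and when alloxan was added to GlcN (-0.30, adjusted p = 0.0115). With GlcN, FN1 gave 0.15 (limma adjusted p = 0.136) and VIM gave -0.01, and neither was called. Of the 4 endothelial markers, VWF (-0.19, adjusted p = 0.0178) and CDH5 (-0.22, adjusted p = 0.0315) were lower with GlcN and alloxan, and VWF when alloxan was added to GlcN (-0.19, adjusted p = 0.0373). Of the 4 epithelial markers, CDH1 was lower with alloxan (-0.41, adjusted p = 0.0443, all by limma). The mean log2 signal of the synovial fibroblast list over the 3 experiments was 8.32 to 9.90 with GlcN, 8.22 to 9.75 with GlcN and alloxan and 8.36 to 9.72 with alloxan, against 8.75 to 10.05 with IL-1β alone. These ranges span experiments of different signal level, so they do not by themselves compare the conditions. The part of these markers in the results for HAS2, CD44 and HYAL2 was not tested.

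The genes with the most similar profiles, by Pearson's r of the experiment-centred signals over the same 15 arrays, were MTMR4 (0.959), SPCS2 (0.940) and ANKEF1 (0.940) for UGDH and FSTL1 (0.940), SPN (0.939) and TUBB6 (0.936) for HYAL2. For HAS2 they were CCND1 (0.931), ANKRD17 (0.922) and NF2 (0.918), and for CD44 GON4L (0.895), PRPF38A (0.877) and CWC25 (0.871). Among the 7 genes themselves, UGDH and HYAL2 ran most opposite (r = -0.791), HAS2 and CD44 were the most alike (0.612), and HAS2 and UGDH were opposite (-0.572). These values describe the arrays, which share their experiments and conditions.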

How the data were processed

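Condition and experiment number of every array came from the submitters' labels. According to the methods, the authors ran RMA (background correction, normalization and probe summary) in the Affymetrix Expression Console, whose version is not given in the sources used here. The deposited log2 values, 1 for each of 33297 transcript clusters, were used without further normalization. Of the clusters, 19460 carried 1 symbol, and 19429 of these symbols were looked up by gene ID in the RefSeq table (GRCh38.p14). The brightest cluster stood for its gene, and a gene was tested if at least 3 arrays had it at or above their own 20th percentile.

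Models were fitted with lmFit and eBayes of limma 3.58.1 (R 4.3.3) to all 15 arrays, with the experiment as a block (8 residual degrees of freedom). Tests were two-sided and adjusted by Benjamini-Hochberg over 16872 genes, with a threshold of 0.05 and 95% intervals from the moderated fit. The numbers in the labels were taken to pair the arrays. Deviations from group means correlated at 0.621 to 0.848 in the 30 pairs of arrays of 1 experiment, and at -0.723 to -0.0678 in the 75 pairs across experiments. Such deviations cancel over the arrays of a group, which by itself pushes the values across experiments down. These correlations therefore cannot tell paired cultures from arrays that were only processed together. The fit was tested on simulated data. Array number limits the precision.

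The genes and the lists were chosen with earlier results of these data known. Named genes were all listed genes, the genes of smallest p in each list (up to 4) and any called gene where 5 or fewer of a list were called, and the 3 most similar profiles for each of the 4 genes with the smallest F-test p. Promoters came from a RefSeq promoter table and were searched with Python 3.11.15. Figures were drawn with matplotlib 3.10.9. Alternatives were no block, the compared arrays only, no filter, a filter at the 50th percentile, cluster means, quantile normalization, equalised scale of the 3 experiments, a robust intensity trend, the methods' t-test, and leaving out each array or experiment. Chosen after seeing the data, the same settings were run for the called list and marker genes and for the calls against resting cells.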

Additional observations from a re-analysis of the deposited data

How the results depend on the processing

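Of the counts of listed genes called, those for GlcN against IL-1β (3), for GlcN with alloxan against IL-1β (2) and for GlcN with alloxan against alloxan (1) fell to 0 with no replicate block, to 0 with the replicate block on only the groups compared, and to 0 with the methods' t-test. In these 3 comparisons the genes called among all 16872 numbered 4, 1 and 0 with no replicate block, 1, 276 and 0 with the block on the groups compared, and 0 in each by the t-test, against 2010, 2958 and 595. At the methods' own threshold (1.5-fold and an unadjusted p under 0.05), that test found 0 of the listed genes in each of 6 comparisons, among 2 to 47 genes in all. The paper reports more genes at that threshold for GlcN and for IL-1β, from its own software and set of genes, and its supplement lists normalized values beside raw ones. The t-test here had no block. The difference in signal level between experiments therefore entered its spread, as in the fit with no replicate block, and it could call few genes at all. The t-test here used the deposited values of the genes tested here, so its counts are not those of the paper. In the main fit, leaving out 1 array or 1 experiment gave 0 to 3 of the listed genes for GlcN, 1 to 3 for GlcN with alloxan, 0 to 1 for GlcN with alloxan against alloxan and 0 to 1 for alloxan against IL-1β. Of the other calls, checked after seeing the data, none was kept with no replicate block or with the block on the groups compared: 5 of listed genes against resting cells, 31 of pathway genes and 22 of marker genes. Without each array in turn 1, 11 and 10 of these were kept, and without each experiment 0, 2 and 6. None of them changed sign. Quantile normalization turned the uncalled HAS2 difference of IL-1β against resting cells to -0.0173. With 1 array or experiment left out, uncalled differences changed sign within these ranges. For IL-1β against resting cells they were HAS2 -0.175 to 0.153, HAS3 -0.0266 to 0.0127 and HYAL2 -0.13 to 0.0265, and for GlcN against IL-1β HAS3 -0.11 to 0.0579. For alloxan added to GlcN they were HAS2 -0.00966 to 0.27, HAS3 -0.0203 to 0.15, UGDH -0.0152 to 0.18 and HYAL2 -0.17 to 0.0147. For GlcN with alloxan against alloxan CD44 gave -0.0532 to 0.0387, and for the interaction UGDH gave -0.20 to 0.0149 and HYAL2 -0.0297 to 0.16. Under the settings that keep all arrays, 283 values kept direction and side of the threshold and 19 lost their call. HAS2, CEMIP and PRG4 dropped out at the 50th percentile filter, the t-test was not run for the interaction, and PRG4 was fitted only without the filter. The causes were not tested.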
